A study of Mus musculus with 12 samples.

Results

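The genes described here are 50 genes of the lysosome and its proton pump, chosen by symbol from what their products do. The choice was not blind to these samples, because earlier results of these data were known. All 50 symbols were found among the 38739 of the deposited table. They comprise 12 subunits of the V-ATPase (6 of the membrane sector V0 and 6 of the cytosolic sector V1), 9 proteases, 9 hydrolases of glycans, 7 hydrolases of lipids, phosphates and other substrates, 3 activators or binding proteins and 10 membrane proteins. RNA was sequenced from bone marrow-derived macrophages (BMDMs) of WT mice and of mice that lack cGAS in all cells (cGAS-/-), both on a C57BL/6J background, either kept in medium (UT) or given LPS, with 3 samples in each of the 4 groups. The sample labels give LPS at 100 ng/mL for 1 h, whereas the study's methods give 150 ng/mL for 24 h, and this difference could not be settled. A figure legend of the study describes each group's 3 samples as technical replicates, so the p-values below measure only how these samples vary, and mice may vary otherwise. The mice were male and 8 weeks old. The text on RNA extraction in the labels names neutrophils and a HiSeq sequencer, whereas the other labels name macrophages and the study's methods a NextSeq sequencer. Values are length-scaled transcript abundances (TPM), taken to be averaged over the transcripts of a gene, so levels are compared between samples and not between genes, and sequencing depth is unknown.

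Lysosomes are acidic organelles in which proteins, glycans, lipids and nucleic acids are broken down. The V-ATPase hydrolyses ATP with its V1 sector and moves protons through its V0 sector into the lumen, and the resulting low pH is needed by most of the luminal enzymes. In macrophages the organelle also digests engulfed microbes and dead cells and processes antigens for MHC class II molecules. Many lysosomal genes carry in their promoters the CLEAR element, a form of the E-box CACGTG that the transcription factors TFEB and TFE3 recognise. cGAS is the cytosolic DNA sensor that makes 2'3'-cGAMP, the ligand of STING. In bulk RNA, fewer cells of a type and less RNA per cell cannot be told apart.

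The targeted gene itself, Cgas (GRCm39, chromosome 9, 78337802 to 78350535), ranged from 0.0703 to 0.29 TPM in cGAS-/- libraries and from 1.19 to 3.25 TPM in WT libraries. The library WT LPS replicate 3 stood apart: its values summed to 709802, against 447189 to 503156 in the other 11 samples, and the pseudogene Fth-ps3 took 31.7% of its total. The members summed to 7984 TPM in it, and to 11868 and 14374 TPM in the other WT LPS samples. Within a group, the median SD of the members on the log2(TPM + 1) scale was 0.0568 in WT UT, 0.0501 in cGAS-/- UT, 0.0538 in cGAS-/- LPS and 0.852 in WT LPS, which fell to 0.387 without replicate 3. Most counts of calls are therefore given with and without that library, which also enters the estimate of spread for the other groups, and so are the values of several members. Summed markers of other cells also differed between groups: B cell markers lay at 108 to 134 TPM in WT UT, 30.6 to 44.9 in WT LPS, 19.9 to 28.5 in cGAS-/- UT and 3.04 to 8.84 in cGAS-/- LPS, and neutrophil markers at 107 to 187, 26.0 to 348, 52.7 to 123 and 45.1 to 59.0 TPM. Igkc and Ighm led the B cell sum, at means of 81.7 and 38.8 TPM in WT UT, and S100a8 and S100a9 the neutrophil sum. Some markers went against their sum. With LPS, Cd79a was higher in WT (log2 fold change 0.85, limma adjusted p = 0.0368) and Camp in cGAS-/- (2.02, adjusted p = 0.0112). The macrophage markers, whose sum Lyz2 leads, lay at 17173 to 17914 TPM in WT UT, 16689 to 26764 in WT LPS, 20439 to 22313 in cGAS-/- UT and 33621 to 34082 in cGAS-/- LPS. Their mean on the log2(TPM + 1) scale, in which each of the 6 tested counts equally, lay at 7.72 to 7.77, 6.71 to 7.82, 7.43 to 7.47 and 7.01 to 7.07 in these groups, so that the order of the sums is that of Lyz2. The mannose receptor Mrc1 was lower in cGAS-/- than in WT, both in UT (log2 fold change −1.68, limma adjusted p = 0.0121) and with LPS (−1.99, adjusted p = 0.00582). Lyz2 was higher in cGAS-/- LPS than in WT LPS (0.80, adjusted p = 0.0366). The part of these markers in the results below was not tested.

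The promoter sequences are shown for the E-box, which the choice of the members did not use. Of the members, 41 matched a RefSeq promoter (250 bases before to 50 after the start, GRCm38.p6). CACGTG, which reads the same on both strands, stood in 12 of these 41 (29.3%), namely Atp6v0b, Atp6v0d1, Cln3, Ctsa, Ctsd, Gaa, Glb1, Lamp1, Lgmn, Mcoln1, Naglu and Sgsh. It stood in 7.15% of all 32851 promoters, in 8.09% of the 27025 genes they belong to, and in 11.9% of the 7362 of these genes that were tested here. The longer TCACGTGA, which contains it, stood in 5 members (Atp6v0d1, Cln3, Ctsa, Ctsd and Mcoln1, 12.2%) against 2.06% of the tested genes. The stretches below run from 150 bases before the start to 15 bases after it, 5′ to 3′ on the strand of the gene, with CACGTG in capitals. The first 4 belong to members with the motif that fell with LPS in WT cells, and Lamp1 holds 4 copies.
Ctsd (chr7:142387813-142387977, minus strand): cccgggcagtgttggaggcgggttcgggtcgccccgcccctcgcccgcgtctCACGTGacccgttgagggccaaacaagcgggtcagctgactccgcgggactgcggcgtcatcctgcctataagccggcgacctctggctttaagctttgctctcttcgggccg
Ctsa (chr2:164833623-164833787, plus strand): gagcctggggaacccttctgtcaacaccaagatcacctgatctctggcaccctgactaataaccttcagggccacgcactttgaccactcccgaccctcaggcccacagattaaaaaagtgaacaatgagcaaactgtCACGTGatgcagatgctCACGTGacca
Sgsh (chr11:119355496-119355660, minus strand): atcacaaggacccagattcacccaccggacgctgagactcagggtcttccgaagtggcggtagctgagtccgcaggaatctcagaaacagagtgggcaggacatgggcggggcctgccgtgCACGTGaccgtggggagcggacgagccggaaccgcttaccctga
Naglu (chr11:101069944-101070108, plus strand): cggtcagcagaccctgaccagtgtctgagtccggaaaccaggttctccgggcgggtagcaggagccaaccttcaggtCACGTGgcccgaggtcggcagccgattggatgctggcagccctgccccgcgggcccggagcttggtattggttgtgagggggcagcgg
Lamp1 (chr8:13159011-13159175, plus strand): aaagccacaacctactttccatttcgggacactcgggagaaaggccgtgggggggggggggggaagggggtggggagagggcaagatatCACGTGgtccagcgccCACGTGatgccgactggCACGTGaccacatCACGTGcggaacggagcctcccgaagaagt
A match describes these letters only and is no evidence of binding.

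In WT cells, LPS was followed by lower levels of the pump's V0 subunits a1 and d2, of most glycan hydrolases and of Cd68, and by a higher level of Ctsc. Limma on log2(TPM + 1) of all 12 samples tested 49 members. The remaining V-ATPase subunit, Atp6v0e2, was at most 0.262 TPM in any sample and did not pass the filter on low values. At a Benjamini-Hochberg adjusted p under 0.05 over 11887 genes, 20 members were lower and 1 was higher with LPS in WT cells, against 23.3% of all tested genes lower and 4.31% higher. The median log2 fold change was −0.90 over the members and −0.46 over all genes tested, and −0.54 and −0.29 without WT LPS replicate 3. With the study's further limit of 2 on the log2 fold change, 4 members were called, against 4.32% of all genes. Values scaled by TMM factors moved the all-gene median to −0.11 and the count to 13 lower and 8 higher members, against 12% and 7.43% of all genes, and the 13 had all been called lower without that scaling. Without replicate 3, 27 members were lower and 6 higher, against 26.5% and 8.26% of all genes, and without replicate 2, 31 were lower and 1 higher, against 43.1% and 5.58%. In a fit of the 6 WT samples alone, 4 were lower (Atp6v0a1, Atp6v0d2, Hexa and Sgsh) and 0 higher, against 4.62% and 1.4% of all genes.

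In cGAS-/- cells, LPS was followed by a fall of 13 members and a rise of 3, against 9.06% of all tested genes lower and 4.76% higher. The median log2 fold change was −0.63 over the members and −0.20 over all genes. Beyond the limit of 2 lay 5 members, against 3.5% of all genes. These counts share their estimate of spread with the WT LPS samples. In a fit of the 6 cGAS-/- samples alone, 36 members were lower and 8 higher, against 32% and 12.7% of all genes, so 44 of the 49 tested members passed in one direction or the other. With all samples but WT LPS replicate 3, 31 were lower and 6 higher, against 21.6% and 9.19% of all genes. The heat map of the members shows the block of lower levels in both LPS groups and the stronger fall in WT LPS replicate 3.

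**Figure D1:**
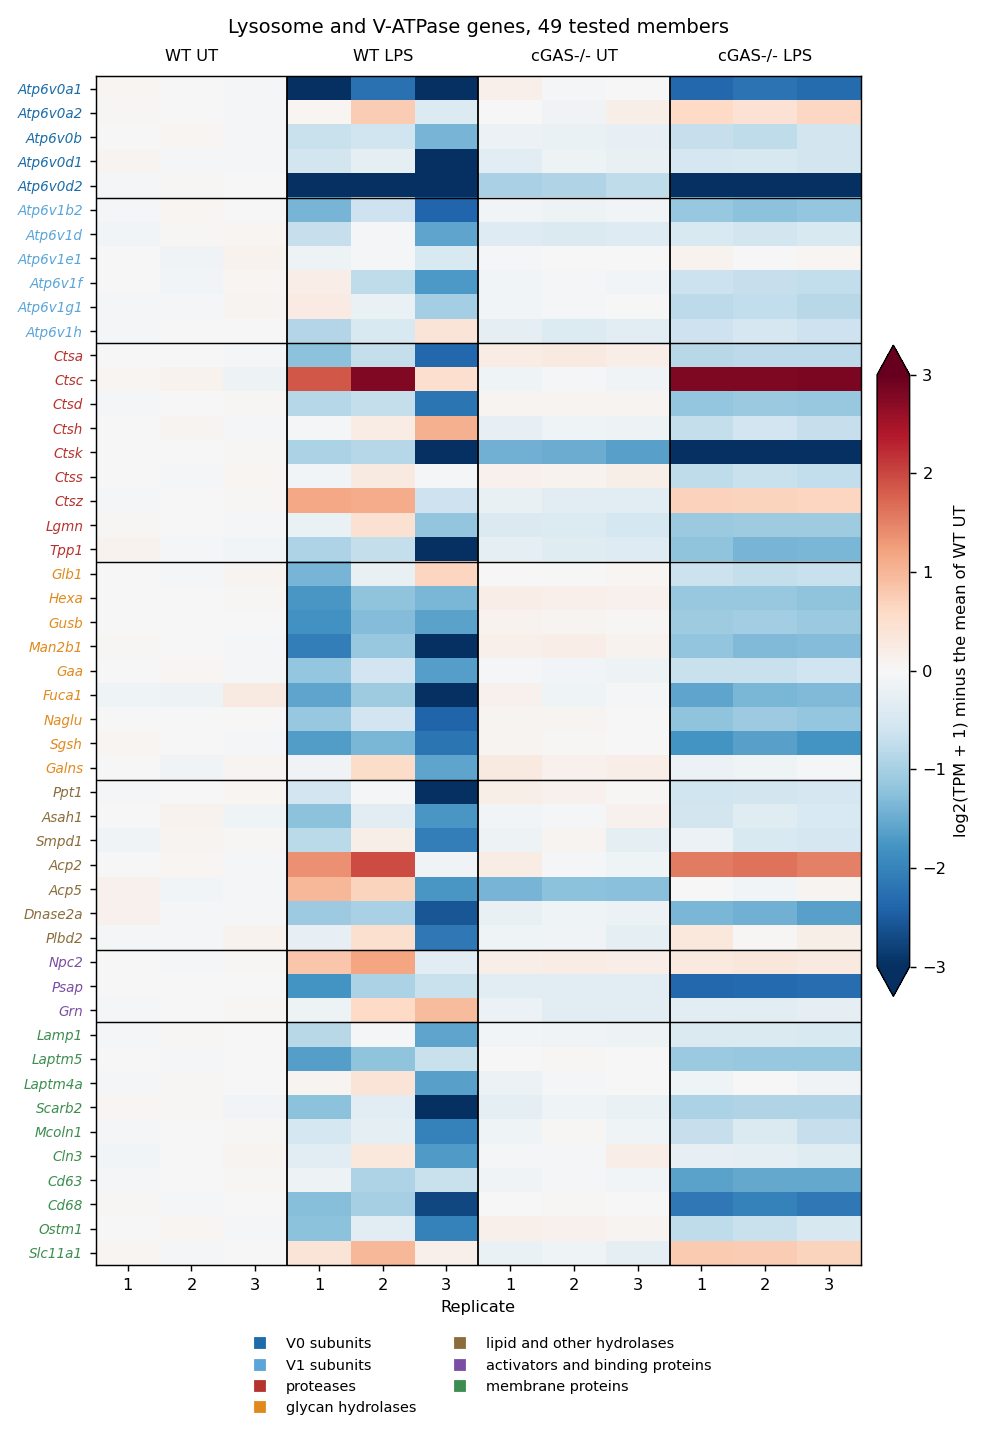
Each row is 1 of the 49 tested members and each column 1 sample. Colour gives log2(TPM + 1) minus the mean of the WT UT samples, cut off at 3 in either direction, and the colour of a name gives its role. The UT columns stay near 0 apart from Ctsk, Acp5 and Atp6v0d2 in cGAS-/-, and WT LPS replicate 3 differs from replicates 1 and 2 for many members.

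Of the 5 V0 subunits tested, 3 fell in WT and 2 in cGAS-/-, against 23.3% and 9.06% of all genes, and 4 fell in each without WT LPS replicate 3, against 26.5% and 21.6%. The d subunits link the membrane ring to the central stalk, and d2 is the form used by osteoclasts and some macrophages in place of the general d1. Atp6v0d2 (chromosome 4, 19876838 to 19922614) was at 140, 149 and 146 TPM in WT UT, at 3.39, 4.51 and 0.833 TPM in WT LPS, at 73.5, 77.7 and 85.0 TPM in cGAS-/- UT and at 0.878, 0.891 and 1.03 TPM in cGAS-/- LPS. In both genotypes every LPS sample lay far below every UT sample, and WT LPS replicates 1 and 2 lay above the cGAS-/- LPS samples. The mean was 145 ± 5.01 TPM (SD, n = 3) in WT UT and 2.91 ± 1.88 in WT LPS, a ratio of 49.8, and the log2 fold change was −5.37 (SE 0.35, limma adjusted p = 3.46e-06). In cGAS-/- cells the means were 78.7 ± 5.84 and 0.934 ± 0.0857 TPM, a ratio of 84.3, with a log2 fold change of −5.36 (limma adjusted p = 2.82e-06).

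Atp6v0d1 (chromosome 8, 106251086 to 106292747), the general d subunit, was at 85.1, 78.0 and 77.8 TPM in WT UT, at 54.8, 66.0 and 3.79 TPM in WT LPS, at 64.6, 72.5 and 68.8 TPM in cGAS-/- UT and at 56.0, 57.5 and 54.7 TPM in cGAS-/- LPS. Replicate 3 was the low sample in WT LPS, and neither LPS comparison passed (log2 fold changes −1.63 and −0.29, limma adjusted p = 0.127 and 0.88). Without replicate 3 its fall in WT was −0.41 with an adjusted p of 0.0147.

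Subunit a forms the proton path with the ring and sets where in the cell the pump sits. Atp6v0a1 (chromosome 11, 100881700 to 100954548) was at 33.6, 32.2 and 30.9 TPM in WT UT and at 1.79, 6.01 and 0.65 TPM in WT LPS. It was at 35.9, 31.5 and 31.8 TPM in cGAS-/- UT and at 5.51, 6.11 and 5.69 TPM in cGAS-/- LPS. The UT samples of the genotypes overlapped, all LPS samples lay below them, and WT LPS replicate 2 reached the level of cGAS-/- LPS. The log2 fold change with LPS was −3.38 (SE 0.41, limma adjusted p = 2.00e-04) in WT and −2.33 (adjusted p = 0.00275) in cGAS-/-. The other a subunit tested, Atp6v0a2, was at 2.74 to 2.92 TPM in WT UT, 1.90 to 5.52 in WT LPS, 2.53 to 3.32 in cGAS-/- UT and 4.19 to 4.87 in cGAS-/- LPS, and passed in neither LPS comparison (adjusted p = 0.695 and 0.238). With TMM factors it passed as higher in both, by 0.61 and 0.79, and without replicate 3 its WT value was 0.41 (adjusted p = 0.124). Atp6v0b, a subunit of the ring, fell by 0.89 on the log2 scale in WT (limma adjusted p = 0.022).

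Of the 6 V1 subunits, all of them tested, 1 fell with LPS in WT and 0 in cGAS-/-, against 23.3% and 9.06% of all genes. Without WT LPS replicate 3 the counts were 2 and 3, against 26.5% and 21.6%, and in the cGAS-/- samples alone 4 fell, against 32%. Atp6v1b2, a B subunit of the ATP-hydrolysing head, fell by 1.47 on the log2 scale in WT (limma adjusted p = 0.0128), and its change in cGAS-/- was −1.06 (adjusted p = 0.0777). Atp6v1g1 (chromosome 4, 63462886 to 63471651), a stalk subunit, was at 328, 320 and 353 TPM in WT UT, at 397, 288 and 163 in WT LPS, at 312, 320 and 335 in cGAS-/- UT and at 193, 200 and 186 in cGAS-/- LPS. Its WT LPS samples spanned both sides of the UT range, whereas the cGAS-/- LPS samples all lay below the UT samples. The log2 fold changes were −0.33 in WT and −0.74 in cGAS-/- (limma adjusted p = 0.399 and 0.129). The WT value was 0.02 without replicate 3 (adjusted p = 0.908) and 0.32 with TMM factors. Atp6v1e1 lay between 31.6 and 47.1 TPM in all 12 samples, and 59.5% of its transcript sequence is shared with Slc25a18, so reads could have been split between them. The 12 subunits among the members summed to 889 to 926 TPM in WT UT, 294 to 694 in WT LPS, 770 to 803 in cGAS-/- UT and 456 to 466 in cGAS-/- LPS. Atp6v1g1 led this sum, which leaves out other V-ATPase genes.

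**Figure D2:**
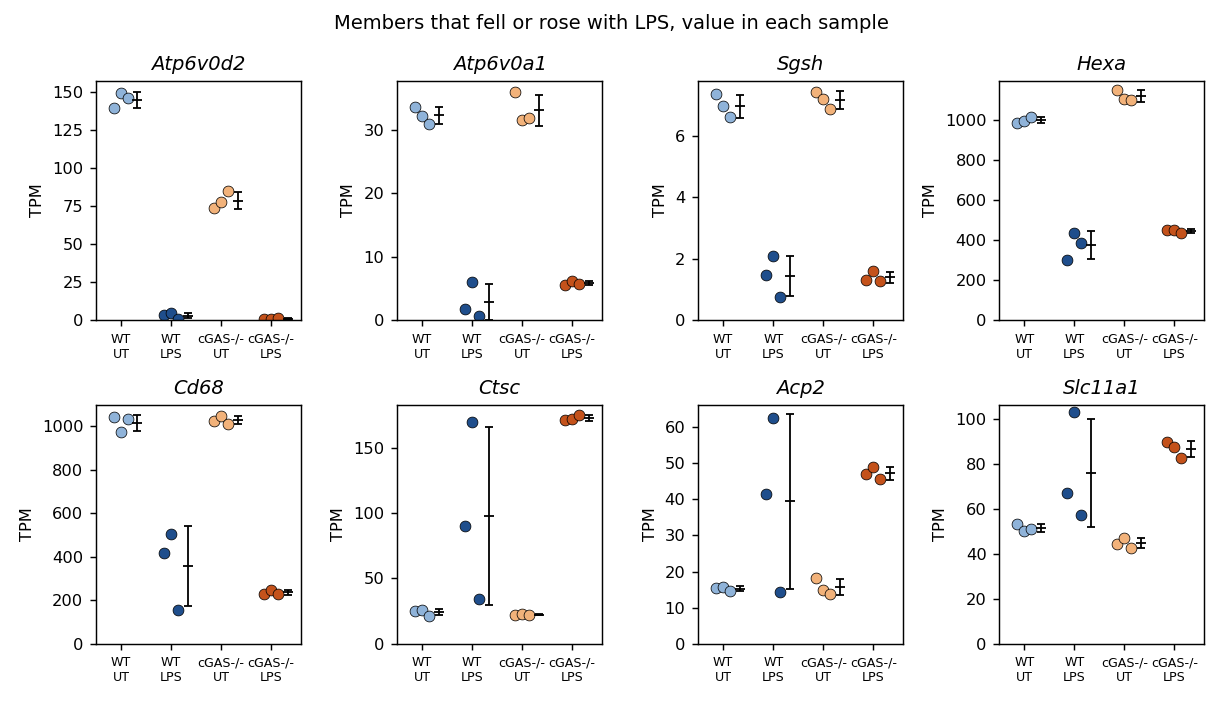
TPM (linear axis from 0) of 8 members in each sample, by group, with the mean and SD beside the 3 points. Atp6v0d2, Atp6v0a1, Sgsh, Hexa and Cd68 lay lower in every LPS sample than in every UT sample, Ctsc lay higher, and for Acp2 and Slc11a1 the WT LPS samples were spread widely.

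Of the 9 hydrolases of glycans, 7 were lower with LPS in WT and 4 in cGAS-/-, against 23.3% and 9.06% of all genes, 0 were higher in either, and the medians were −1.44 and −1.21 against −0.46 and −0.20 over all genes. Without replicate 3, 8 were lower in each genotype, against 26.5% and 21.6% of all genes. Sgsh (chromosome 11, 119234251 to 119246374), the sulfamidase of heparan sulfate breakdown, was at 7.33, 6.95 and 6.59 TPM in WT UT, at 1.48, 2.07 and 0.755 in WT LPS, at 7.42, 7.18 and 6.87 in cGAS-/- UT and at 1.30, 1.59 and 1.28 in cGAS-/- LPS. The genotypes overlapped in both conditions and the treatments did not. The log2 fold changes were −1.75 and −1.78 (SE 0.21, limma adjusted p = 2.09e-04 and 2.02e-04).

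Hexa (chromosome 9, 59446818 to 59474021), the alpha subunit of the hexosaminidase that degrades GM2 ganglioside, was at 986, 997 and 1016 TPM in WT UT, at 298, 435 and 386 in WT LPS, at 1152, 1104 and 1101 in cGAS-/- UT and at 452, 452 and 434 in cGAS-/- LPS. All LPS samples lay below all UT samples, and replicate 1 was the lowest of WT LPS. The log2 fold changes were −1.44 and −1.33 (SE 0.19, limma adjusted p = 3.21e-04 and 6.64e-04). Gusb, the beta-glucuronidase, fell by 1.57 and 1.15 (adjusted p = 3.66e-04 and 0.00356).

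Man2b1, the alpha-mannosidase of glycoprotein breakdown (chromosome 8, 85809885 to 85825361), was at 50.6, 49.8 and 48.7 TPM in WT UT, at 11.1, 22.0 and 4.53 in WT LPS, at 55.6, 57.1 and 54.0 in cGAS-/- UT and at 21.2, 19.4 and 19.7 in cGAS-/- LPS. The treatments did not overlap, and the log2 fold changes were −2.13 and −1.42 (limma adjusted p = 0.00337 and 0.0391). Fuca1, the alpha-fucosidase (chromosome 4, 135648004 to 135668235), was at 49.7, 49.2 and 66.5 TPM in WT UT, at 17.6, 25.6 and 3.05 in WT LPS, at 59.8, 49.8 and 53.7 in cGAS-/- UT and at 17.6, 20.4 and 21.4 in cGAS-/- LPS. Replicate 3 was again the lowest in WT LPS. Its log2 fold change was −2.14 in WT (limma adjusted p = 0.0151) and −1.32 (adjusted p = 5.01e-04) there without replicate 3, and −1.41 in cGAS-/- (adjusted p = 0.124). Naglu, which acts after Sgsh in heparan sulfate breakdown, and Gaa, the acid glucosidase of glycogen, fell in WT by 1.37 and 1.13 (adjusted p = 0.0197 and 0.00792), with −1.21 and −0.55 in cGAS-/- (adjusted p = 0.0521 and 0.206). Without replicate 3 the WT value of Naglu was −0.86 (adjusted p = 0.00171). The beta-galactosidase Glb1 and the sulfatase Galns passed in neither genotype (log2 fold changes −0.32 and −0.38 in WT). Without replicate 3, Glb1 fell by 0.80 in WT (adjusted p = 0.0390) and the value of Galns was 0.22 (adjusted p = 0.335), and with TMM factors both were above 0, at 0.32 and 0.20.

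Of the 9 proteases, 3 fell and 1 rose in WT, against 23.3% and 4.31% of all genes, and 2 fell and 1 rose in cGAS-/-, against 9.06% and 4.76%. Without replicate 3, 4 fell and 2 rose in WT, against 26.5% and 8.26%, and 7 fell and 2 rose in cGAS-/-, against 21.6% and 9.19%. Ctsc (chromosome 7, 87927092 to 87960096), cathepsin C, which activates granule serine proteases, was at 25.0, 25.6 and 21.4 TPM in WT UT, at 89.7, 169 and 34.3 in WT LPS, at 21.8, 22.8 and 22.0 in cGAS-/- UT and at 171, 172 and 175 in cGAS-/- LPS. Every LPS sample lay above every UT sample, and the cGAS-/- LPS samples all lay above those of WT LPS. The log2 fold change was 1.71 (SE 0.44, limma adjusted p = 0.0161) in WT and 2.91 (adjusted p = 0.00108) in cGAS-/-, and the means rose by ratios of 4.08 and 7.78. Without replicate 3 the WT value was 2.32 (adjusted p = 3.17e-05). Ctsz, a carboxypeptidase, was at 2804, 2718 and 804 TPM in WT LPS against 1214 to 1287 in WT UT, so that replicates 1 and 2 lay above and replicate 3 below the UT range (log2 fold change 0.55, limma adjusted p = 0.289, and 1.15 without replicate 3, adjusted p = 1.75e-06). In cGAS-/- it was at 1940 to 2007 TPM with LPS and at 994 to 1061 TPM in UT, with no overlap. The log2 fold change of 0.96 there missed the threshold with all samples (adjusted p = 0.143) and passed in the cGAS-/- samples alone (adjusted p = 1.10e-05).

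Among the proteases that fell, the aspartyl protease Ctsd, cathepsin D, was at 3368 to 3500 TPM in WT UT, 752 to 2090 in WT LPS, 3601 to 3637 in cGAS-/- UT and 1522 to 1573 in cGAS-/- LPS. It fell by 1.25 and 1.22 on the log2 scale (limma adjusted p = 0.014 and 0.0236), and the WT value without replicate 3 was −0.78 (adjusted p = 2.23e-05). The carboxypeptidase Ctsa fell by 1.43 in WT (adjusted p = 0.0121), with −1.04 in cGAS-/- (adjusted p = 0.0746). Tpp1, a tripeptidyl peptidase, fell by 1.74 in WT (adjusted p = 0.0473) and by 0.82 without replicate 3 (adjusted p = 5.36e-04), with this library at 1.60 TPM against 15.2 and 18.0 TPM in the other WT LPS samples.

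Among the hydrolases of lipids and other substrates, 2 of 7 fell in WT, against 23.3% of all genes, and 1 fell and 1 rose in cGAS-/-, against 9.06% and 4.76%. Without replicate 3, 2 fell and 2 rose in each genotype, against 26.5% and 8.26% of all genes in WT and 21.6% and 9.19% in cGAS-/-. Dnase2a, the acid DNase that degrades engulfed DNA, was at 17.3 to 19.8 TPM in WT UT, 2.21 to 8.76 in WT LPS, 15.5 to 16.4 in cGAS-/- UT and 5.20 to 6.40 in cGAS-/- LPS, with log2 fold changes of −1.54 and −1.30 (limma adjusted p = 0.0104 and 0.0346). In WT it was −1.03 without replicate 3 (adjusted p = 1.33e-04). Asah1 (chromosome 8, 41792846 to 41827851), the acid ceramidase, was at 86.3, 91.0 and 78.0 TPM in WT UT, at 35.4, 68.4 and 24.6 in WT LPS, at 80.5, 81.3 and 93.1 in cGAS-/- UT and at 57.8, 66.1 and 61.5 in cGAS-/- LPS. The treatments did not overlap within either genotype, with log2 fold changes of −1.10 and −0.45 (limma adjusted p = 0.0282 and 0.448). Acp2 (chromosome 2, 91033138 to 91044443), the lysosomal acid phosphatase, was at 15.5, 15.9 and 14.5 TPM in WT UT, at 41.4, 62.7 and 14.2 in WT LPS, at 18.1, 14.9 and 13.8 in cGAS-/- UT and at 47.0, 49.1 and 45.5 in cGAS-/- LPS. Only replicate 3 of the LPS samples stayed at the UT level. The log2 fold change was 1.55 in cGAS-/- (SE 0.42, limma adjusted p = 0.0314). In WT it was 1.09 (adjusted p = 0.074), and 1.68 without replicate 3 (adjusted p = 6.36e-05).

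Of the 3 activators and binding proteins, 1 fell in each genotype, with and without replicate 3, and without it 1 also rose in WT, where 8.26% of all genes did. The shares of all genes that fell are those given for the V0 subunits. Psap encodes prosaposin, the precursor of the saposins that present sphingolipids to their hydrolases. Psap (chromosome 10, 60113431 to 60138380) was at 1539, 1510 and 1517 TPM in WT UT, at 439, 793 and 955 in WT LPS, at 1218, 1217 and 1210 in cGAS-/- UT and at 298, 300 and 309 in cGAS-/- LPS. LPS samples lay below UT samples in both genotypes, and replicate 3 was the highest of WT LPS. The log2 fold change was −1.13 (SE 0.26, limma adjusted p = 0.00863) in WT and −2.00 (adjusted p = 3.17e-04) in cGAS-/-. With TMM factors the WT value was −0.48 (adjusted p = 0.363). The cholesterol-binding Npc2 and the granulin precursor Grn passed in neither genotype, with 0.58 and 0.46 in WT and 0.10 and −0.05 in cGAS-/-. Without replicate 3, Npc2 was higher in WT by 1.02 (limma adjusted p = 6.70e-05) and Grn stood at 0.22 (adjusted p = 0.359). With TMM factors both passed as higher in WT, Npc2 by 1.23 (adjusted p = 0.00110) and Grn by 1.11 (adjusted p = 0.0465).

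Among the 10 membrane proteins, 3 fell in WT, against 23.3% of all genes, and 3 fell and 1 rose in cGAS-/-, against 9.06% and 4.76%. Without replicate 3, 6 fell and 1 rose in each genotype, against the same 26.5% and 8.26% in WT and 21.6% and 9.19% in cGAS-/-. Cd68, the heavily glycosylated macrosialin of macrophage endosomes and lysosomes (chromosome 11, 69555037 to 69557067), was at 1042, 973 and 1031 TPM in WT UT, at 415, 506 and 153 in WT LPS, at 1023, 1046 and 1009 in cGAS-/- UT and at 230, 249 and 230 in cGAS-/- LPS. All LPS samples lay below all UT samples, with log2 fold changes of −1.67 and −2.12 (SE 0.36, limma adjusted p = 0.00682 and 0.00228). Laptm5, a transmembrane protein of blood cell lysosomes, fell by 1.17 and 1.14 (adjusted p = 0.00683 and 0.0108). Ostm1, the partner of the ClC-7 chloride transporter, fell by 1.20 in WT (adjusted p = 0.0256), and the tetraspanin Cd63 by 1.47 in cGAS-/- (adjusted p = 0.00118). Without replicate 3, the WT value was −0.78 for Ostm1 (adjusted p = 0.0218) and −0.54 for Cd63 (adjusted p = 0.0397), which then passed. Of the transcript sequence of Cd63 46.4% is shared with Gm58347, and of that of Lamp1 40.5% with Grtp1, so their reads could have been split.

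Slc11a1 (Nramp1; chromosome 1, 74414303 to 74425448), which moves metal ions out of the phagosome, was at 53.4, 50.4 and 50.9 TPM in WT UT, at 67.3, 103 and 57.5 in WT LPS, at 44.5, 47.1 and 42.8 in cGAS-/- UT and at 89.7, 87.8 and 82.6 in cGAS-/- LPS. LPS samples lay above UT samples in both genotypes, with log2 fold changes of 0.51 (limma adjusted p = 0.134) and 0.94 (adjusted p = 0.0251). Without replicate 3 it passed in WT too, with 0.68 (adjusted p = 0.00772). Lamp1 (chromosome 8, 13209121 to 13227360), the main glycoprotein of the lysosomal membrane, was at 912, 958 and 950 TPM in WT UT, at 526, 911 and 312 in WT LPS, at 891, 877 and 851 in cGAS-/- UT and at 692, 697 and 683 in cGAS-/- LPS. Within each genotype the LPS samples lay below the UT samples, in WT by less than 1 TPM for replicate 2, and neither comparison passed (log2 fold changes −0.82 and −0.34, limma adjusted p = 0.0695 and 0.583), and the WT value without replicate 3 was −0.44 (adjusted p = 0.0842). The calcium channel Mcoln1 (TRPML1), whose promoter holds TCACGTGA, also passed in neither (−0.95 and −0.53), but was lower in WT without replicate 3 (−0.41, adjusted p = 0.0337).

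Several of these calls with LPS rested on the scaling or on single samples. In WT, those of Asah1, Atp6v0b, Ctsd, Laptm5, Ostm1, Psap and Tpp1 were lost with TMM factors, and those of Ctsd, Ostm1 and Tpp1 without the filter on low values. Tpp1 lost its WT call when any 1 of the 9 samples outside WT LPS was left out, Naglu, Atp6v0b, Asah1 and Ostm1 when any 1 WT UT sample was, the latter pair also without WT LPS replicate 1, and Fuca1 and Ctsc without WT UT replicate 3. In cGAS-/-, the calls of Acp2, Dnase2a and Man2b1 were lost when any 1 of the 9 samples outside WT LPS was left out, and those of Ctsd and Slc11a1 when any 1 cGAS-/- sample was. Without the filter, Acp2, Ctsd, Ctss, Dnase2a and Man2b1 lost their cGAS-/- calls, and Laptm5 and Ctss lost theirs with TMM factors.

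Other calls with LPS were made only under an alternative. With TMM factors, Atp6v0a2, Ctss, Ctsz, Acp2, Npc2, Grn and Slc11a1 were also called higher in WT. In cGAS-/-, that scaling added Atp6v0a2, Ctsz and Acp5 as higher and Atp6v1b2, Ctsa and Naglu as lower. When WT LPS replicate 3 was left out, the fold changes in cGAS-/- stayed as they were and 21 more members passed there. Of these, Atp6v0a2, Ctsz and Acp5 were higher. The 18 lower ones were Atp6v0b, Atp6v0d1, Atp6v1b2, Atp6v1f, Atp6v1g1, Ctsa, Ctsh, Ctsk, Lgmn, Tpp1, Glb1, Gaa, Fuca1, Naglu, Ppt1, Scarb2, Mcoln1 and Ostm1, and the limma adjusted p of the 21 ran from 2.02e-06 for Ctsz to 0.0477 for Glb1.

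**Figure D3:**
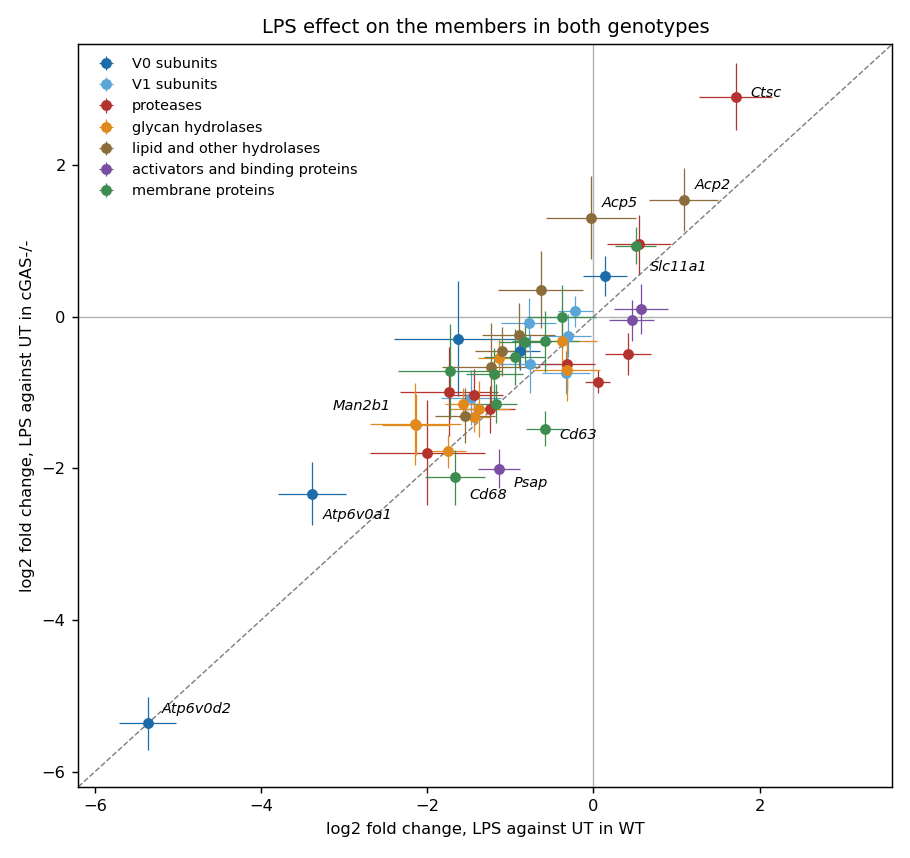
Log2 fold change with LPS in WT (horizontal axis) and in cGAS-/- (vertical axis) for the 49 tested members, with SE bars and roles by colour. The dashed line marks equal change. Atp6v0d2 lies on it at −5.37 and −5.36, Ctsc, Acp2 and Acp5 lie above it, and Psap, Cd63 and Cd68 below it.

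Members with and without the E-box were also set side by side. With LPS in WT cells, the median log2 fold change of the 12 members with CACGTG was −1.04 and 6 were called lower, and the 28 tested members whose promoter lacks it had −1.02 with 11 lower and 1 higher, against 23.3% of all genes lower and 4.31% higher. In cGAS-/- cells the medians were −0.59 with 2 lower and −0.74 with 10 lower and 3 higher, against 9.06% and 4.76%. Without replicate 3, the WT medians were −0.71 with the motif and −0.46 without it. In that fit 9 with the motif were lower in WT, and 14 without it were lower and 6 higher, against 26.5% and 8.26% of all genes. In cGAS-/- the counts were 10 lower with it, and 17 lower and 5 higher without it, against 21.6% and 9.19%. These values are descriptive.

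Between genotypes in UT cells, 0 of 49 members passed in either direction with all 12 samples, against 0.252% of all genes higher and 1.58% lower in cGAS-/-. At an unadjusted limma p under 0.05, 2 were lower and 0 higher, a count without a background, as the share of all genes at that threshold was not computed. That fit takes its spread over all 4 groups, WT LPS included. In a fit of the 6 UT samples alone, 11 members were lower and 3 higher in cGAS-/-, against 7.07% and 3.37% of all genes. With all samples but WT LPS replicate 3, 4 members were lower and 0 higher, against 4.17% and 1.15% of all genes, namely Ctsk, Acp5, Atp6v0d2 and Ctsz. The median log2 fold change was −0.07 over the members and −0.04 over all genes. The members described next were picked after their values were seen.

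The 3 lowest were Ctsk, Acp5 and Atp6v0d2, which are known from the bone-resorbing osteoclast. Ctsk (chromosome 3, 95406178 to 95416732), the collagen-degrading cathepsin K, was at 36.1, 36.0 and 37.4 TPM in WT UT and at 12.7, 12.4 and 11.2 TPM in cGAS-/- UT. The groups did not overlap, with a ratio of 3.02 and a log2 fold change of −1.52. Its SE was 0.06 in the UT samples alone (limma adjusted p = 2.17e-04) and 0.69 in all 12 (adjusted p = 0.624). Acp5 (chromosome 9, 22038023 to 22049355), tartrate-resistant acid phosphatase, was at 9.17, 7.89 and 8.03 TPM in WT UT and at 2.53, 3.0 and 2.89 in cGAS-/- UT, a ratio of 2.98. Its log2 fold change was −1.30 (in these 2 fits, SE 0.09 and 0.55, limma adjusted p = 0.00121 and 0.526). Atp6v0d2, with the values given above, lay lower in every cGAS-/- UT sample, by a ratio of 1.84 and a log2 fold change of −0.87 (SE 0.06 and 0.35, limma adjusted p = 0.00128 and 0.454).

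The list of osteoclast markers, of which Ctsk, Acp5 and Atp6v0d2 are also members, summed to 190 to 200 TPM in WT UT and 90.3 to 101 TPM in cGAS-/- UT. Atp6v0d2, Ctsk and Acp5 had means of 145, 36.5 and 8.36 TPM in WT UT, so this sum mostly restates these 3 members. The list's defining genes Calcr, Ocstamp and Oscar were at most 0.0184, 0.768 and 0.560 TPM in any sample. Of its other genes, Mmp9, a matrix metalloprotease, was at 2.84, 4.09 and 3.77 TPM in WT UT and at 0.465, 0.518 and 0.766 TPM in cGAS-/- UT, and Itgb3, an integrin subunit, at 1.54, 1.98 and 1.82 and at 0.844, 0.546 and 0.796 TPM. Both lay lower in every cGAS-/- UT sample, and neither passed with all 12 samples (log2 fold changes −1.52 and −0.68, limma adjusted p = 0.0690 and 0.0747), whereas both passed in the UT samples alone (adjusted p = 0.00339 and 0.0216). With LPS, Mmp9 went the other way, at 51.8, 48.9 and 47.6 TPM in cGAS-/- and 4.18, 4.06 and 0.744 TPM in WT (log2 fold change between genotypes 3.82, limma adjusted p = 3.19e-04, and interaction 5.34, adjusted p = 9.49e-04). The part of such cells in the difference was not tested.

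The other 8 members that were lower in the UT samples alone differed by −0.46 for the asparaginyl endopeptidase Lgmn to −0.21 for Atp6v0b, and included Atp6v1d, Atp6v1h, Tpp1, Ctsz, Psap and Grn. The 3 that were higher, Ctsa, Npc2 and Hexa, differed by 0.23, 0.20 and 0.16.

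**Figure D4:**
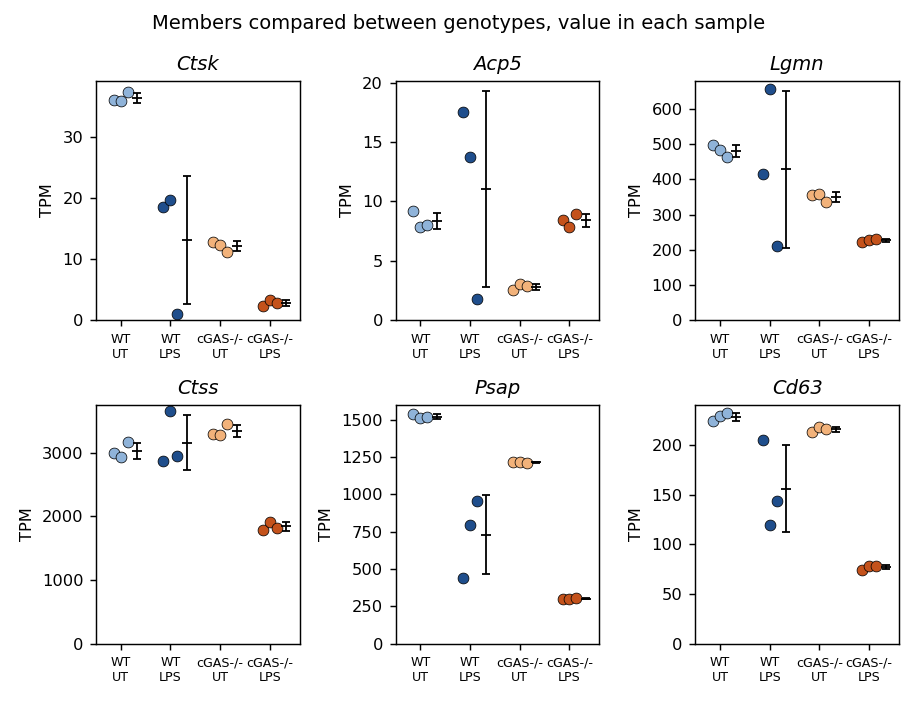
TPM (linear axis from 0) of 6 members in each sample, by group, with the mean and SD beside the 3 points. Ctsk, Acp5, Lgmn and Psap lay lower in all cGAS-/- UT samples than in all WT UT samples, and Ctss, Psap and Cd63 lay lower in all cGAS-/- LPS samples than in all WT LPS samples.

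Between genotypes with LPS, 2 members were lower and 0 higher in cGAS-/- with all 12 samples, against 1% of all genes lower and 1.36% higher. The median log2 fold change was 0.27 over the members and 0.20 over all genes. The members that passed were Psap and Ctss. Psap, with the LPS values above, was 2.41 times lower on average in cGAS-/- LPS, a log2 fold change of −1.19 (SE 0.26, limma adjusted p = 0.038). Ctss (chromosome 3, 95433963 to 95463717), cathepsin S, which trims the invariant chain for MHC class II loading, was at 2997, 2930 and 3174 TPM in WT UT, at 2872, 3662 and 2953 in WT LPS, at 3290, 3275 and 3446 in cGAS-/- UT and at 1793, 1919 and 1821 in cGAS-/- LPS. The WT samples of both treatments overlapped and cGAS-/- LPS lay below all other groups. The log2 fold change between genotypes with LPS was −0.77 (SE 0.15, limma adjusted p = 0.0229), and with LPS Ctss fell by 0.86 in cGAS-/- (adjusted p = 0.00251) against a change of 0.05 in WT (adjusted p = 0.805). With TMM factors the change was −0.52 in cGAS-/- (adjusted p = 0.154), no longer past the threshold, and 0.71 in WT (adjusted p = 0.0398), which then passed as higher.

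Psap and Ctss each lost the adjusted p under 4 of 10 other settings, the fit of the compared samples alone among them, and when any 1 of the 9 samples outside WT LPS was left out.

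The counts depended on which WT LPS libraries were included. Without replicate 3, 15 members were lower and 0 higher in cGAS-/- LPS, against 4.44% and 3.84% of all genes, and the members' median was −0.16 against 0.04 over all genes. Without replicate 2, by contrast, 4 were lower and 12 higher, against 3.98% and 23.9% of all genes. Without replicate 1, 5 were lower and 0 higher, against 1.73% and 1.24%. With each of the 9 samples outside WT LPS left out in turn, 0 members passed in either direction, against 0.345% to 0.723% of all genes lower and 0.303% to 0.85% higher.

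Of the 15, the largest difference was that of Ctsk, at 18.6, 19.7 and 1.03 TPM in WT LPS and at 2.28, 3.35 and 2.77 TPM in cGAS-/- LPS. Replicates 1 and 2 lay above and replicate 3 below the cGAS-/- samples, so the log2 fold change was −1.31 with all samples (limma adjusted p = 0.322) and −2.42 without replicate 3 (adjusted p = 5.90e-06). Lgmn was at 417, 657 and 211 TPM in WT LPS and 221, 228 and 230 TPM in cGAS-/- LPS, with −0.77 (adjusted p = 0.249) and −1.21 (adjusted p = 0.00155). Cd63 was at 205, 120 and 144 TPM in WT LPS and at 74.8, 78.0 and 78.7 TPM in cGAS-/- LPS, with no overlap in any library, and differed by −0.97 (adjusted p = 0.053) and −1.02 (adjusted p = 0.00704). Atp6v0d2 differed by −0.87 and −1.35, Cd68 by −0.43 and −0.96, Ctsh by −1.08 and −0.75 and Acp5 by 0.04 and −0.82, the first value of each with all samples and the second without replicate 3. The remaining 8 were Ctss, Psap, Atp6v1g1, Npc2, Tpp1, Ctsz, Dnase2a and Ctsd. With all samples, Tpp1, Ctsz, Dnase2a and Ctsd lay above 0, at 0.41, 0.11, 0.06 and 0.11, and did not pass.

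**Figure D5:**
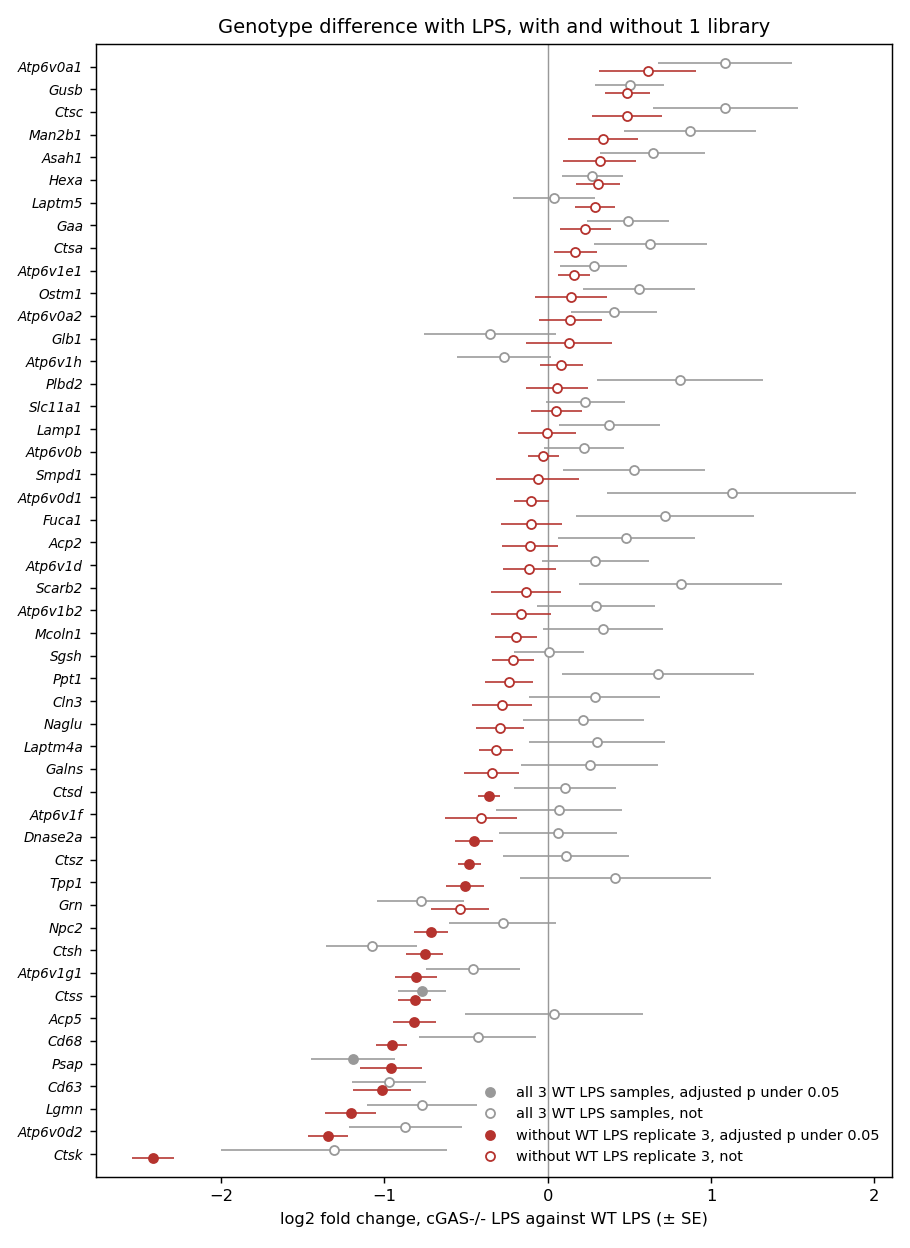
Log2 fold change of cGAS-/- LPS against WT LPS with SE for the 49 tested members, with all 3 WT LPS samples (grey) and without WT LPS replicate 3 (red). Filled points have an adjusted p under 0.05, which 2 members had with all samples and 15 without that library, and most grey points lie to the right of the red ones.

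Whether LPS acted differently in the 2 genotypes was tested as an interaction, which passed for 0 members in either direction, against 0.732% of all genes higher and 0.168% lower. At an unadjusted limma p under 0.05, 4 were lower and 0 higher, again without a share of all genes to set beside it. The lowest adjusted p among the members was that of Ctss (interaction −0.91, limma adjusted p = 0.0831). Without replicate 3, 6 members had a more negative LPS effect in cGAS-/- and 0 a more positive one, against 1.64% and 2.92% of all genes. Without replicate 2, by contrast, 4 members had a more positive effect and 2 a more negative one, against 11.4% and 1.22% of all genes. The 6 without replicate 3 were Ctss (−0.95), Cd68 (−0.97), Npc2 (−0.91), Ctsk (−0.90), Atp6v1g1 (−0.76) and Ctsd (−0.44), with limma adjusted p from 0.00274 to 0.0359. With all samples their values were −0.91, −0.45, −0.47, 0.21, −0.41 and 0.03 in the same order, so those of Ctsk and Ctsd turned in sign. The interaction of Atp6v0d2 was 0.00 with all samples (adjusted p = 0.999) and −0.47 without replicate 3. Every comparison with LPS in WT, between genotypes with LPS and the interaction shares the 3 WT LPS samples, so these counts are not independent of one another.

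Genes of the same organelle outside the 50 were counted with LPS in the same way. Of 30 other lysosomal hydrolases and cofactors tested, 10 fell and 0 rose in WT, and 6 fell and 1 rose in cGAS-/-, and without replicate 3 the counts were 15 and 2 in WT and 18 and 3 in cGAS-/-. Of 21 other lysosomal membrane proteins, 8 and 5 fell and 0 rose, among them the calcium channels Mcoln3 (−2.01 in WT, −1.71 in cGAS-/-) and Tpcn1 (−2.76 and −1.30), and for Tpcn1 the interaction was 1.46 (limma adjusted p = 0.0488). Without replicate 3, 10 fell and 1 rose in WT, and 12 fell and 0 rose in cGAS-/-. Of 23 genes of lysosomal enzyme sorting, 11 and 4 fell and 0 rose, led by the sorting receptor Sort1 (−2.54 and −1.75), and 15 and 13 fell and 0 and 1 rose without that library. Of 26 genes of mTORC1 and MiT/TFE control at the lysosome, 10 and 6 fell and 0 rose, with Sesn1, a leucine-sensing inhibitor (−3.65 and −1.90), and Castor1, an arginine sensor (−1.76 and −1.44), in both genotypes. Without the library, 12 fell in each and 0 and 1 rose. Of 3 other V-ATPase genes tested, 0 passed with all samples, and without the library 1 fell in WT and 1 rose in cGAS-/-. The shares of all genes for each fit, given above for the members, hold as the background here too.

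Between genotypes, 0 of these 103 other genes were higher and 1 lower in cGAS-/- UT, against 0.252% and 1.58% of all genes, and 3 were higher and 1 lower in cGAS-/- LPS, against 1.36% and 1%. Without WT LPS replicate 3, 5 were higher and 5 lower in UT, against 1.15% and 4.17%, and 6 higher and 7 lower with LPS, against 3.84% and 4.44%. The compared samples alone gave 10 higher and 15 lower in UT, against 3.37% and 7.07%, and 0 in either direction with LPS, where 0.0168% and 0.0252% of all genes passed. The 3 higher with all samples were Sort1 (1.26, limma adjusted p = 0.00542) and the lysozymes Lyz1 (1.79, adjusted p = 0.0412) and Lyz2 (0.80, adjusted p = 0.0366), paralogs whose reads may have been split. The 1 lower gene in both conditions was Ctsl, the cysteine protease cathepsin L. Ctsl was at 665, 672 and 670 TPM in WT UT, at 684, 820 and 1270 in WT LPS, at 313, 312 and 317 in cGAS-/- UT and at 256, 256 and 251 in cGAS-/- LPS. Every cGAS-/- sample lay below every WT sample, with log2 fold changes of −1.09 in UT (SE 0.23, limma adjusted p = 0.0368) and −1.81 with LPS (adjusted p = 0.00220). Ctsb, Lamp2 and Tfeb are not analysed here.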

How the data were processed

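RNA of 12 BMDM samples in 4 groups of 3 was analysed, grouped by the titles in the labels. Per the labels and the study's methods, the authors used fastp, STAR and kallisto with GRCm39. The unit of the deposited table was inferred from its values as TPM, a mean of the transcripts under each symbol. Column totals differ, and depth is unknown. Genes with at least 1 TPM (rescaled to a total of 1000000 for this filter only) in 3 of 12 samples were kept, which left 11887 of 38739. Limma 3.58.1 (R 4.3.3) was fitted with a trend to log2(TPM + 1), which understates changes at low values, with a mean per group and Benjamini-Hochberg adjustment over all genes for each of 5 comparisons. The fit was tested on simulated data. Alternatives were pseudocounts of 0.1 and 5, no filter, 5 TPM, TMM factors, quantile normalization, sample weights, no trend, a replicate block, the compared samples alone and each sample left out. The members, the lists and the named-gene rule were chosen with earlier results of these data known. Named with every sample's value were members past a genotype comparison or interaction, the 5 largest rises and falls with LPS among members that passed, and the highest member of each role. Other members were chosen after their values were seen. Shared transcript sequence was found with blastn 2.17.0 (75 bases at 95% identity). Gene coordinates are GENCODE's on GRCm39.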

Additional observations from a re-analysis of the deposited data

How the results depend on the processing

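Among members that passed in a comparison with all 12 samples, 0 changed sign with TMM factors and 0 without WT LPS replicate 3. Some members called only without that library had changed sign. These were Ctsd, Ctsz, Tpp1, Acp5 and Dnase2a between genotypes with LPS, and Ctsk and Ctsd in the interaction. Among all 49, whether past the threshold or not, the sign of the fold change with TMM factors turned for 4 between genotypes in UT, 9 between genotypes with LPS, 9 with LPS in WT, 6 with LPS in cGAS-/- and 11 in the interaction. Without WT LPS replicate 3 it turned for 24 between genotypes with LPS, 6 with LPS in WT and 18 in the interaction. In UT cells, 0 members were lower or higher in cGAS-/- with all 12 samples, 1 was lower with a pseudocount of 5 (2.11% of all genes), 8 with sample weights (8.03%), and 11 lower and 3 higher in the compared samples alone (7.07% and 3.37%); leaving out single samples gave 0 to 4 lower. With LPS, the 2 members lower in cGAS-/- became 1 with a pseudocount of 0.1, 0 without a filter, 0 in the compared samples alone, 4 with TMM factors, 4 with quantile normalization and 8 with sample weights, with 0.69%, 0.305%, 0.0252%, 1.61%, 1.86% and 0.967% of all genes lower. Left-out samples gave 0 to 15 lower and 0 to 12 higher. For LPS in WT, the 20 lower and 1 higher members became 13 and 8 with TMM factors (12% and 7.43%), 4 were higher with quantile normalization (8.13%) and 5 with sample weights (3.79%), and 4 were lower and 0 higher in the compared samples alone (4.62% and 1.4%); left-out samples gave 14 to 31 lower and 0 to 6 higher. For LPS in cGAS-/-, the 13 lower and 3 higher became 35 and 7 with sample weights (35.1% and 13.2%) and 36 and 8 in the compared samples alone (32% and 12.7%), and 6 and 5 were higher with TMM factors and quantile normalization (6.97% and 6.85%); left-out samples gave 10 to 31 lower and 1 to 6 higher. For the interaction, 1 member was lower with a pseudocount of 5 (0.353%) and 3 with sample weights (0.53%), and left-out samples gave 0 to 6 lower (most without WT LPS replicate 3) and 0 to 4 higher (most without WT LPS replicate 2).

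The members' median minus that of all genes was 0.073 between genotypes with LPS and became −0.158 with a pseudocount of 0.1, and −0.202 to 0.247 when samples were left out. It was −0.440 for LPS in WT and −0.818 without a filter, and −0.591 to −0.250 when samples were left out (the latter without WT LPS replicate 3), and 0.128 for the interaction, where it became −0.129 with a pseudocount of 0.1, 0.340 without a filter and −0.0692 with sample weights, and −0.173 to 0.245 when samples were left out. Between genotypes with LPS, the medians of the members and of all genes were 0.27 and 5.39e-04 without a filter. They were 0.04 and 0.10 with TMM factors, 0.03 and 0.13 with sample weights, and 0.27 and 0.35 with the filter of 5 TPM. The cause of these changes was not tested.

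With the replicate block, 0 members passed between genotypes with LPS, against 0.681% of all genes lower and 0.824% higher. For LPS against UT in that fit, 20 were lower and 1 higher in WT, against 20.8% and 4.06%. In cGAS-/- they were 13 and 3, against 7.66% and 4.24%. Samples of the same number did not deviate together (correlations −0.0315 to 0.0383 over 18 pairs, 0 of them over 0.1). With 3 samples in a group, such correlations cannot exclude that the numbers pair the samples.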
